A study of Mus musculus with 6 samples.

Results

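Before a cell divides it copies its genome once, and the genes described here encode the proteins that mark replication origins and run the replication fork. In G1 the origin recognition complex, with CDC6 and CDT1, loads the ring-shaped MCM2-7 helicase onto DNA, a step called licensing that geminin blocks outside G1. CDC45 and the GINS complex then switch the helicase on, primase and the polymerases copy both strands behind it, and many of these genes are transcribed under the control of E2F factors as cells leave G1. Adult articular chondrocytes divide rarely, whereas the precursors of blood cells in the bone marrow beneath the joint divide often.

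Of the 33971 genes in the deposited table, 44 were given as a list of names, chosen with earlier results of these data known. They were grouped into the MCM2-7 helicase (6 genes), origin licensing factors (5), helicase activation with CDC45 and GINS (6), DNA polymerases and primase (9), the sliding clamp and its loader (6), the single-strand binding protein RPA (3), Okazaki fragment maturation with RNase H2 (6) and deoxynucleotide supply (3). RNA was sequenced from articular cartilage of wildtype mice, with 3 libraries from animals 2 months old and 3 from animals 18 months old. No treatment or altered allele is given for either age. Library totals ran from 48171507 to 51683577 counts at 2 months and from 55201357 to 59085179 at 18 months. Levels are given as FPKM, which divides the fragments of a gene by transcript length and library total, so that levels of different genes can be set side by side. Fold changes compare 18 months with 2 months and come from edgeR's quasi-likelihood test on the counts, written edgeR below. To be called, a gene needed an adjusted p-value (Benjamini-Hochberg, over 20397 tested genes) under 0.05 together with a log2 fold change beyond 1 in either direction. Errors marked SE are standard errors. The p-values measure only the spread between these libraries, and an exact permutation test of 3 against 3 cannot give a p-value below 0.1.

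Some features of the libraries bear on every value below. A list of 10 chondrocyte markers took 3.42% to 5.61% of all counts at 2 months but 0.0357% to 0.105% at 18 months, and 10 of 10 were called lower. The genes that define cartilage were thus scarce in the older libraries, and Matn1 and Matn3, which encode cartilage matrix proteins, were at 0 counts in 18-month replicate 3. Of the 2-month libraries, replicate 2 stood apart in markers of blood cells and osteoclasts and in the bone genes Bglap, Bglap2 and Dmp1. Many of the results below are also given without that library. Counts of Xist, the RNA that coats the inactive X chromosome, ran from 88239 to 102417 at 2 months and from 11 to 30 at 18 months. The methods speak of male mice, whereas Xist separated the ages completely, so a difference of sex and one of age cannot be told apart. In bulk tissue, fewer cells of a type and less RNA per cell cannot be told apart either.

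Replication genes were higher in 18-month cartilage. Of the 44 genes, 39 were called higher and 0 were called lower, against 14.9% of all tested genes called higher and 21.3% called lower. The median log2 fold change was 2.22, with a range of 0.43 to 3.63, whereas the median of all tested genes was −0.02. An adjusted p-value below 0.05 without the fold limit was reached by 43 of the 44 genes, all higher, against 23.4% of all tested genes higher and 27.9% lower. The 5 genes that were not called were Cdc6, Gins4, Pold2, Pold3 and Rfc1, and each of them was also higher in value. In all 44 genes the FPKM of every 18-month library lay above that of every 2-month library, a pattern shown by 35.6% of all tested genes, while 32.8% showed the reverse. Over all genes FPKM summed to 269587 to 293108 in the 2-month libraries and to 360503 to 387502 in the 18-month libraries. This separation, and each ratio of FPKM between the ages, holds for FPKM as deposited. After rescaling to equal sums the ages overlapped for Rfc1, and the ratios between the ages need not hold. The gap between the ages was widest in proportion for Rrm2, at 12.4-fold between the mean FPKM values, and narrowest for Rfc1, at 1.43-fold. Together the 44 genes took 0.0667%, 0.141% and 0.0687% of the counts in 2-month replicates 1, 2 and 3. In the 18-month replicates they took 0.425%, 0.428% and 0.423%.

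**Figure D1:**
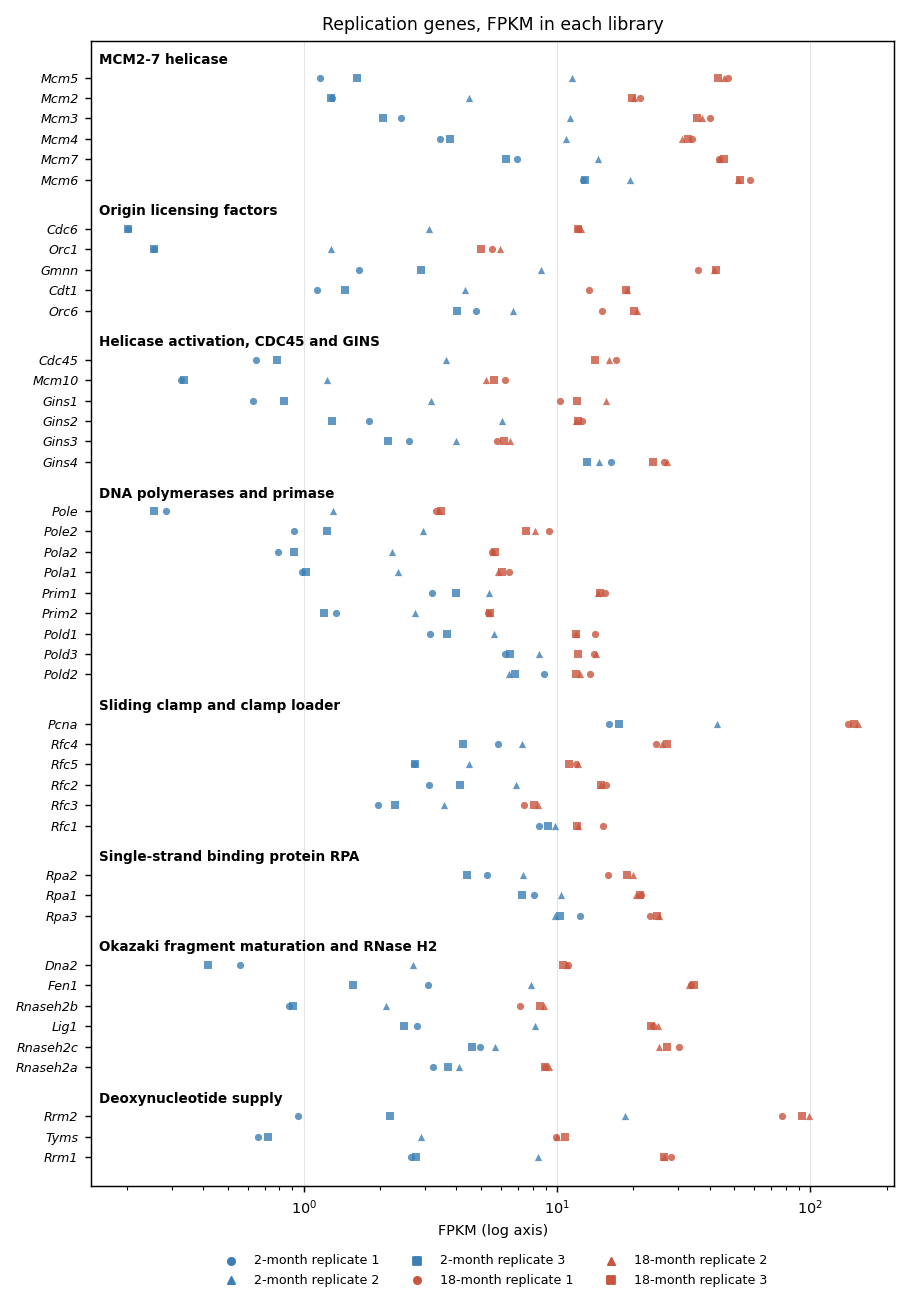
FPKM of the 44 replication genes in each of the 6 libraries on a log axis, with genes ordered within each complex by fold change, 2-month libraries in blue and 18-month libraries in red. In every row the 3 red symbols lie to the right of the 3 blue ones, and the blue triangle of 2-month replicate 2 is the rightmost blue symbol in 41 of 44 rows.

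The spread differed between the ages. Within the 18-month group the highest library exceeded the lowest by a median of 1.11-fold (range 1.01 to 1.52), and in 43 genes by less than 1.5-fold. Within the 2-month group the median was 2.53-fold (range 1.15 to 19.6). Replicate 2 held the highest 2-month value in 41 of the 44 genes, at a median of 2.46 times the mean of replicates 1 and 3. The lowest 18-month value was still a median of 2.78 times the highest 2-month value (range 1.22 to 4.46). Without 2-month replicate 2 the number of genes called higher was 40 and the median log2 fold change 2.74, when 23.3% of all tested genes were called higher. Leaving out any other single library gave 34 to 36 genes called higher, when 9.81% to 12.5% of all tested genes were called higher. The median log2 fold change was then 2.05 to 2.24. For most of the 44 genes the change without 2-month replicate 2, often given below, was the largest with any single library left out.

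The MCM2-7 ring unwinds DNA at the fork, and its 6 subunits are needed in equal number. All 6 were called higher, with log2 fold changes of 1.78 to 3.23 and a median of 2.61. Mcm5 (ENSMUSG00000005410, chromosome 8, 75109569 to 75128439, plus strand) had the largest change of the ring. Its FPKM was 1.16, 11.5 and 1.62 in 2-month replicates 1, 2 and 3 and 47.1, 45.5 and 43.0 in the 18-month replicates. Replicate 2 was thus the high library of the young group, and the lowest 18-month value was 3.75 times as high. In edgeR Mcm5 changed by 3.23 ± 0.91 (SE) on the log2 scale (adjusted p = 0.029). The change was 4.91 without 2-month replicate 2. The call of Mcm5 was lost without 2-month replicate 3 and without each 18-month replicate in turn, where the adjusted p-value reached 0.078 in edgeR.

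Mcm6 (ENSMUSG00000026355, chromosome 1, 128331590 to 128359664, minus strand) changed least among the subunits. Its FPKM was 12.7, 19.4 and 12.9 at 2 months and 57.8, 51.6 and 52.8 at 18 months. Mcm6 was already the most abundant subunit in each 2-month library, and the libraries of the ages did not overlap. The edgeR estimate for Mcm6 was 1.78 ± 0.16 (SE) on the log2 scale, with an adjusted p-value of 0.0013, and 1.98 without 2-month replicate 2. Mcm2, Mcm3, Mcm4 and Mcm7 had log2 fold changes of 3.08, 2.83, 2.40 and 2.21, and of 3.89, 3.98, 3.08 and 2.65 without 2-month replicate 2.

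Levels of the subunits were closer to each other in the older tissue. The most abundant subunit exceeded the least abundant by 10.9-, 4.33- and 10.1-fold in FPKM in 2-month replicates 1, 2 and 3. At 18 months it did so by 2.71-, 2.58- and 2.68-fold. The ratio of Mcm6 to Mcm2 was 9.83, 4.33 and 10.1 at 2 months and 2.71, 2.58 and 2.68 at 18 months. Here too 2-month replicate 2 lay between its own group and the 18-month libraries. These ratios are descriptions and were not tested.

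Licensing factors bring the ring to the origin. ORC1 and ORC6 belong to the origin recognition complex, CDC6 and CDT1 load MCM2-7, and Gmnn encodes geminin, the inhibitor of CDT1. Of the 5 genes, 4 were called higher, and the median log2 fold change was 3.15. Cdc6 (ENSMUSG00000017499, chromosome 11, 98907801 to 98923940, plus strand) had the largest fold change of the group and was the one gene of the group not called. Its FPKM was 0.202, 3.11 and 0.201 in 2-month replicates 1, 2 and 3 and 12.1, 12.4 and 12.1 in the 18-month replicates. The 18-month libraries were nearly equal, whereas 2-month replicate 2 was 15.4 times the mean of the other young libraries. In edgeR Cdc6 was at 3.37 ± 1.15 (SE), with an adjusted p-value of 0.052. Without 2-month replicate 2 Cdc6 was called, with a log2 fold change of 5.80 and an adjusted p-value of 3.0e-05 in edgeR. It was called in 7 of 17 alternative settings, among them DESeq2 with an adjusted p-value of 0.0010, and its adjusted p-value ran up to 0.12 over those with all 6 libraries.

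Orc6 (ENSMUSG00000031697, chromosome 8, 85299632 to 85308071, plus strand) changed least among the licensing factors. Its FPKM was 4.77, 6.67 and 4.02 at 2 months and 15.1, 20.7 and 20.1 at 18 months, so the groups did not overlap. Orc6 had a log2 fold change of 1.79 ± 0.22 (SE, adjusted p = 0.0023, edgeR). Orc1, Gmnn and Cdt1 had log2 fold changes of 3.16, 3.15 and 2.84, and of 4.31, 4.03 and 3.62 without 2-month replicate 2. Geminin thus rose together with the factor it inhibits. The FPKM of Gmnn was 1.46, 2.00 and 1.99 times that of Cdt1 in the 2-month replicates and 2.71, 2.20 and 2.26 times in the 18-month replicates.

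The remaining subunits of the origin recognition complex showed smaller changes. None of Orc2, Orc3, Orc4 and Orc5 was called. The FPKM of Orc4 was 4.34, 4.48 and 4.64 at 2 months and 3.94, 4.60 and 4.13 at 18 months, and the groups overlapped. On the log2 scale Orc4 differed between the ages by −0.16 ± 0.12 (SE, adjusted p = 0.28, edgeR). Orc3 was at 0.12 (adjusted p = 0.32, edgeR), which changed sign to −0.23 when FPKM values were rescaled to TPM in limma. Orc2 and Orc5 had log2 fold changes of 0.96 and 0.93 with adjusted p-values of 0.0027 and 0.0027 in edgeR, so they rose by less than the limit. Orc2 passed the limit in 5 of 17 alternative settings, with 1.10 without 2-month replicate 2, and Orc5 in 2 of 17, with 1.02 without 2-month replicate 1. The FPKM of Orc1 was 0.0591, 0.287 and 0.0552 times that of Orc4 in the 2-month replicates and 1.40, 1.295 and 1.21 times in the 18-month replicates. In the young libraries Orc1 was therefore the scarcer subunit, and in the older libraries it was the more abundant.

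Promoter sequences were available for 35 of the 44 genes, each covering 250 bases before and 50 bases from the RefSeq start site on GRCm38.p6. They were searched on both strands for the E2F words TTTCCCGC, TTTCGCGC, TTTGCCGC and TTTGGCGC, which can overlap each other. At least 1 word was found in 13 of the 35 windows (37.1%), against 2.33% of the 27025 windows of all genes and 3.76% of those of tested genes. The MCM2-7 genes held one in 4 of 5 windows, the licensing factors in 3 of 4 and the polymerases and primase in 4 of 7. None was found in the 11 windows of RPA, Okazaki fragment maturation with RNase H2, and deoxynucleotide supply. A match is a description of the letters and not a mapped site. The stretches below show 4 windows in which the words lie before the start site, read 5′ to 3′ on the strand of the gene, with the E2F words in capitals. They lie at chr8:75109334-75109393 (plus strand) for Mcm5, chr1:128359736-128359835 (minus) for Mcm6, chr11:98907991-98908050 (plus) for Cdc6 and chrX:93632256-93632315 (minus) for Pola1.
Mcm5: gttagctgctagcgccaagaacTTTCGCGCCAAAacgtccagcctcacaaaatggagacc
Mcm6: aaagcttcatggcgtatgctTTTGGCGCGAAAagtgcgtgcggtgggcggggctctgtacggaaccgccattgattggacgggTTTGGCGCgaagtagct
Cdc6: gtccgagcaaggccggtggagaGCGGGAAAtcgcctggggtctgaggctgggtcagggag
Pola1: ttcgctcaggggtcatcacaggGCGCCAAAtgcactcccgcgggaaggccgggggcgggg
In Mcm5 a pair of words on opposite strands overlap, and their first bases lie 153 and 149 bases before the start. Mcm6 has an overlapping pair whose first bases lie 110 and 106 bases before the start, and another word at 47 bases. In Cdc6 and Pola1 the word begins 138 bases before the start in both. GENCODE M21 places no gene on the stretches of Mcm5, Mcm6 and Pola1. The stretch of Cdc6 lies in an intron of Cdc6, because the gene starts 350 bases earlier in the deposited table than in RefSeq.

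The windows were also searched for the letters CCAAT and for TTTGAA, the core of the element that many mitosis genes carry. CCAAT was found in 22 of 35 windows of replication genes (62.9%), in 37.9% of all windows and in 38.3% of those of tested genes. TTTGAA was found in 5 of 35 windows of replication genes (14.3%), in 18.1% of all windows and in 12.9% of those of tested genes. Of 15 windows of mitosis genes, 14 held CCAAT (93.3%), 12 held TTTGAA (80.0%) and 1 held an E2F word (6.67%). Of the replication genes called higher that had a window, 11 of 31 held an E2F word, and of those not called 2 of 4 did.

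Helicase activation factors join the loaded ring to form the active helicase. CDC45 and the 4 GINS proteins are its accessory subunits, and MCM10 helps to start it. Of these 6 genes, 5 were called higher, with a median log2 fold change of 2.47 over the 6. The FPKM of Cdc45 (ENSMUSG00000000028, chromosome 16, 18780447 to 18811972, minus strand) was 0.645, 3.65 and 0.784 at 2 months and 17.1, 16.1 and 14.1 at 18 months. The lowest 18-month library was 3.87 times 2-month replicate 2, the high one of the young group. In edgeR Cdc45 changed by 3.18 ± 0.69 (SE) on the log2 scale (adjusted p = 0.012), and by 4.35 without 2-month replicate 2. With each library left out in turn the change of Cdc45 ran from 2.81 to 4.35.

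Gins4 (ENSMUSG00000031546, chromosome 8, 23226616 to 23237659, minus strand), the gene of the GINS subunit SLD5, had the smallest change of the group. Its FPKM was 16.3, 14.6 and 13.2 in the 2-month replicates and 26.5, 27.2 and 23.9 in the 18-month replicates. Replicate 2 was the middle value of the young group, and the ages did not overlap. The edgeR estimate for Gins4 was 0.74 ± 0.13 (SE) on the log2 scale, with an adjusted p-value of 0.0060, so Gins4 rose by less than the limit, and it was not called in any of 17 alternative settings. Gins1, Gins2 and Gins3 had log2 fold changes of 2.99, 1.96 and 1.01. The call of Gins3, the one nearest the limit among the called genes, was lost in 7 of 17 alternative settings, among them without 2-month replicates 1 and 3 and without 18-month replicate 2. The call of Gins2 was lost without each library other than 2-month replicate 2, with adjusted p-values up to 0.081 in edgeR, and Gins2 was at 2.87 without that one. Mcm10 had a log2 fold change of 3.13, and without 2-month replicate 2 it was at 3.99 and Gins1 at 3.995.

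Primase and polymerase alpha lay down the primers, polymerase epsilon extends the leading strand and polymerase delta the lagging strand. Of their 9 genes, 7 were called higher, and the median log2 fold change was 1.76. Pole (ENSMUSG00000007080, chromosome 5, 110286306 to 110337474, plus strand), the catalytic subunit of polymerase epsilon, had the largest change. Its FPKM was 0.285, 1.303 and 0.256 at 2 months and 3.33, 3.41 and 3.48 at 18 months. The highest 18-month value was 1.05 times the lowest, and replicate 2 was the high young library. Pole had a log2 fold change of 2.44 ± 0.65 (SE, adjusted p = 0.024, edgeR), and 3.55 without 2-month replicate 2. Its call was lost without any 1 of the other 5 libraries, with adjusted p-values up to 0.065 in edgeR.

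Accessory subunits of polymerase delta were the exceptions among the polymerases. Pold2 (ENSMUSG00000020471, chromosome 11, 5872180 to 5878292, minus strand) had an FPKM of 8.89, 6.46 and 6.84 at 2 months and 13.5, 12.3 and 11.9 at 18 months. Replicate 2 was the lowest young library for Pold2, unlike most replication genes. On the log2 scale Pold2 differed between the ages by 0.68 ± 0.18 (SE, adjusted p = 0.023, edgeR). For Pold3 (ENSMUSG00000030726, chromosome 7, 100082111 to 100121565, minus strand) the FPKM was 6.19, 8.50 and 6.496 at 2 months and 13.96, 14.2 and 12.1 at 18 months. The ages did not overlap, and the change was 0.86 ± 0.13 (SE, adjusted p = 0.0038, edgeR). Neither gene was called in any of 17 alternative settings. Pold1, the catalytic subunit of polymerase delta, was called at 1.54, and the FPKM of Pold2 was 2.82, 1.15 and 1.87 times that of Pold1 at 2 months and 0.959, 1.04 and 0.999 times at 18 months.

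Genes of the primase-polymerase alpha complex changed by similar amounts. Pola1, Pola2, Prim1 and Prim2 had log2 fold changes of 2.02, 2.04, 1.76 and 1.56, and each was called with every single library left out. Pole2 was at 2.24, and at 2.84 without 2-month replicate 2. Among the small subunits outside the 44 genes, Pold4, Pole3 and Pole4 were not called, with log2 fold changes of 0.17, −0.40 and 0.34 and adjusted p-values of 0.25, 0.11 and 0.055 in edgeR. With values rescaled to TPM in limma, Pold4 changed to −0.18 and Pole4 to −0.01. POLE3 also serves in chromatin remodelling complexes outside replication. The FPKM of Pole3 was 120, 18.1 and 113 times that of Pole in the 2-month replicates and 6.84, 6.91 and 6.73 times in the 18-month replicates.

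**Figure D2:**
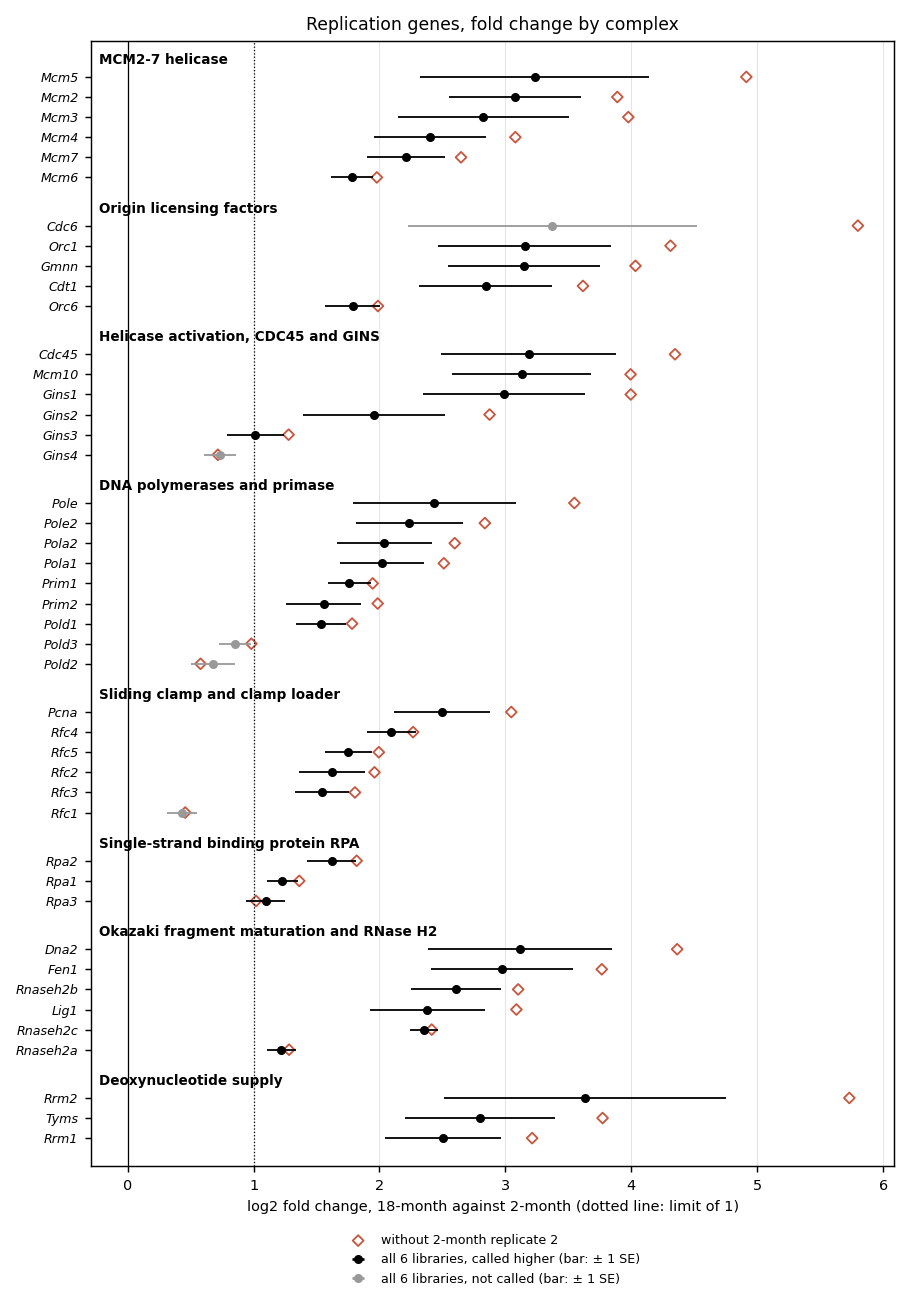
Log2 fold change of each replication gene, 18-month against 2-month, with all 6 libraries (filled points with bars of 1 standard error, black where called and grey where not) and without 2-month replicate 2 (open red diamonds). The 5 grey points are Cdc6, at 3.37 with a wide bar, and Gins4, Pold3, Pold2 and Rfc1, which lie left of the dotted limit of 1, and the diamonds of most of the other genes lie to the right of their points.

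The sliding clamp holds the polymerases on DNA, and the RFC complex loads it. Pcna (ENSMUSG00000027342, chromosome 2, 132249162 to 132253314, minus strand) encodes the clamp and was the most abundant of the 44 genes in all 3 libraries of the older group. Its FPKM was 16.1, 42.6 and 17.5 at 2 months and 141, 154 and 149 at 18 months. The lowest 18-month library was 3.31 times 2-month replicate 2, the high young one. In edgeR Pcna changed by 2.50 ± 0.38 (SE) on the log2 scale (adjusted p = 0.0041), and by 3.05 without 2-month replicate 2. Over each single library left out its change ran from 2.27 to 3.05. A pseudogene copy, Pcna-ps2, is also counted in the table, so reads may have been divided between the pair.

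Rfc1 (ENSMUSG00000029191, chromosome 5, 65261850 to 65335621, minus strand), the large subunit of the loader, changed least of all 44 genes. Its FPKM was 8.49, 9.78 and 9.24 in the 2-month replicates and 15.2, 12.0 and 11.9 in the 18-month replicates. The lowest 18-month value was 1.22 times the highest 2-month value in FPKM as deposited, but the ages overlapped after rescaling to equal sums. The edgeR estimate for Rfc1 was 0.43 ± 0.12 (SE) on the log2 scale, with an adjusted p-value of 0.026, and it was 0.07 with TPM in limma. Rfc2, Rfc3, Rfc4 and Rfc5 were each called at 1.62, 1.54, 2.09 and 1.75, and the call was kept with every library left out in turn. The FPKM of Pcna was 8.22, 11.9 and 7.64 times that of Rfc3 at 2 months and 19.0, 18.4 and 18.4 times at 18 months.

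RPA coats the single strand that the helicase exposes and also serves in DNA repair. All 3 subunits were called higher, with a median log2 fold change of 1.23, the lowest of the 8 groups. The FPKM of Rpa2 (ENSMUSG00000028884, chromosome 4, 132768332 to 132778752, plus strand) was 5.28, 7.32 and 4.41 at 2 months and 15.9, 19.997 and 18.9 at 18 months. For Rpa3 (ENSMUSG00000012483, chromosome 6, 8255936 to 8259173, minus strand) it was 12.3, 9.79 and 10.3 at 2 months and 23.4, 25.2 and 24.9 at 18 months. Replicate 2 was the highest young library for Rpa2 and the lowest for Rpa3. Rpa2 rose by 1.62 ± 0.19 (SE, adjusted p = 0.0021, edgeR) and Rpa3 by 1.10 ± 0.15 (SE, adjusted p = 0.0033, edgeR). Rpa1 was at 1.23. The calls of Rpa1 and Rpa3 were lost with TPM in limma, at 0.88 and 0.75, and that of Rpa3 also with a minimum mean FPKM of 1, at 0.99.

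Okazaki fragments on the lagging strand are trimmed by FEN1 and DNA2 and joined by DNA ligase 1, and RNase H2 removes RNA from DNA. All 6 genes were called higher, with a median log2 fold change of 2.49. The FPKM of Dna2 (ENSMUSG00000036875, chromosome 10, 62947026 to 62974185, plus strand) was 0.561, 2.70 and 0.419 at 2 months and 11.1, 11.0 and 10.5 at 18 months. Replicate 2 was the high young library, and the lowest 18-month value was 3.90 times as high. Dna2 had a log2 fold change of 3.12 ± 0.73 (SE, adjusted p = 0.016, edgeR), and 4.36 without 2-month replicate 2. Fen1 and Lig1 were at 2.97 and 2.38, and at 3.77 and 3.09 without that library. The lowest changes of Dna2, Fen1 and Lig1 with any single library left out were 2.72, 2.59 and 2.11.

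The subunits of RNase H2 differed in their change although they form one enzyme. Rnaseh2a (ENSMUSG00000052926, chromosome 8, 84956610 to 84969767, minus strand), the catalytic subunit, had an FPKM of 3.23, 4.09 and 3.70 at 2 months and 8.93, 9.25 and 8.93 at 18 months. On the log2 scale Rnaseh2a differed between the ages by 1.22 ± 0.11 (SE, adjusted p = 0.0013, edgeR). Its call was lost with TPM in limma, at 0.87, and in the edgeR test against a fold change of 2 (adjusted p = 0.060). Rnaseh2b and Rnaseh2c were at 2.61 and 2.35. Rnaseh2c had an FPKM of 4.97, 5.68 and 4.62 at 2 months and 30.3, 25.3 and 27.1 at 18 months. It was the member with the smallest adjusted p-value (0.00071, edgeR), and its 2-month replicates were close to each other. The FPKM of Rnaseh2a was 3.70, 1.94 and 4.10 times that of Rnaseh2b in the 2-month replicates and 1.25, 1.05 and 1.04 times in the 18-month replicates. In GENCODE M21 an exon of Rnaseh2a overlaps Gm49661 and an exon of Pole2 overlaps Gm49384 on the same strand, and reads there could be counted for either gene. Exons of 14 of the 44 genes overlap a gene on the opposite strand, among them Mcm7, Fen1, Lig1 and Rnaseh2c.

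Ribonucleotide reductase makes deoxynucleotides from a large subunit, RRM1, and a small subunit, RRM2, and thymidylate synthase, encoded by Tyms, makes the precursor of thymidine triphosphate. All 3 were called higher, with a median log2 fold change of 2.80. Rrm2 (ENSMUSG00000020649, chromosome 12, 24708241 to 24714146, plus strand) had the largest change of the 44 genes. Its FPKM was 0.945, 18.5 and 2.19 at 2 months and 77.1, 99.2 and 92.8 at 18 months. The young libraries spanned 19.6-fold, and the lowest 18-month library was 4.17 times the highest of them. In edgeR Rrm2 changed by 3.63 ± 1.12 (SE) on the log2 scale (adjusted p = 0.039), and by 5.73 without 2-month replicate 2. The call of Rrm2 was lost without 2-month replicate 3, without each 18-month replicate and with no filter on low counts, with adjusted p-values up to 0.10 in edgeR.

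Rrm1 (ENSMUSG00000030978, chromosome 7, 102441695 to 102469771, plus strand) changed less than its partner. Its FPKM was 2.65, 8.42 and 2.78 at 2 months and 28.2, 26.4 and 26.4 at 18 months. The edgeR estimate for Rrm1 was 2.50 ± 0.46 (SE) on the log2 scale, with an adjusted p-value of 0.0072, and 3.21 without 2-month replicate 2. With each library left out in turn it ran from 2.25 to 3.21. Rrm2b, which encodes the small subunit used for repair and in cells that do not divide, went the other way in value. Its FPKM was 4.16, 3.17 and 3.53 at 2 months and 2.62, 2.67 and 2.65 at 18 months, with no overlap. Rrm2b had a log2 fold change of −0.53 ± 0.15 (SE, adjusted p = 0.032, edgeR), which is within the limit. The FPKM of Rrm2 was 0.227, 5.84 and 0.621 times that of Rrm2b in the 2-month replicates and 29.4, 37.1 and 34.96 times in the 18-month replicates. Replicate 2 was the one young library in which Rrm2 exceeded both Rrm1 and Rrm2b.

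Other genes of the pathway were read from 8 hand-written lists of 81 genes, all of which were tested. Of these, 46 were called higher and 3 lower, with a median log2 fold change of 2.06, so the share called higher was 56.8%, against 88.6% of the 44 genes and the 14.9% of all tested genes given above. These shares were not compared by a test.

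Kinases and firing factors turn a licensed origin into a fork, and their list also held the MCM-related genes Mcm8, Mcm9 and Mcmbp. Of the 10 genes in this list, 6 passed as higher and 0 as lower. The 4 not called were Mtbp, Mcmbp, Mcm8 and Mcm9, at 0.71, 0.91, 0.75 and 0.45 on the log2 scale. The share called therefore does not describe kinases and firing factors alone. Cdc7 and its activator Dbf4, which phosphorylate MCM2-7, were at 1.69 and 2.75 on the log2 scale (adjusted p = 0.0065 and 0.011, edgeR), and without 2-month replicate 2 Dbf4 was at 3.66. Ticrr, which brings CDC45 to the origin, had the largest rise of its list, at 3.50 (adjusted p = 0.020, edgeR). Without 2-month replicate 2 Ticrr was at 5.11. Its call was lost when 2-month replicate 3, 18-month replicate 2 or 18-month replicate 3 was left out (adjusted p up to 0.055, edgeR). Of 5 other polymerase genes 2 were called higher, Polq at 2.26 and Polh at 1.39. Both encode separate polymerases and not subunits of the fork polymerases. The subunit genes of that list, Pold4, Pole3 and Pole4, were not called. The call of Polq was lost without 2-month replicate 3 and without each 18-month replicate (adjusted p up to 0.058, edgeR). Polq was at 3.19 without 2-month replicate 2.

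Fork protection proteins and alternative clamp loaders were called higher in 5 of 8 genes, with a median of 2.48, and Wdhd1, which ties polymerase alpha to the helicase, led the called genes at 2.64 (adjusted p = 0.0077, edgeR), and at 3.40 without 2-month replicate 2. Chromatin assembly factors at the fork were called higher in 6 of 9, with a median of 2.32, led by the histone chaperone Asf1b at 3.27 (adjusted p = 0.0097, edgeR), and at 4.31 without 2-month replicate 2. Other deoxynucleotide enzymes were called higher in 7 of 9, with a median of 1.18, led by thymidine kinase 1, Tk1, at 3.15 (adjusted p = 0.0056, edgeR), and at 3.87 without 2-month replicate 2. Of the 4 other origin recognition subunits none was called, with a median of 0.53.

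**Figure D3:**
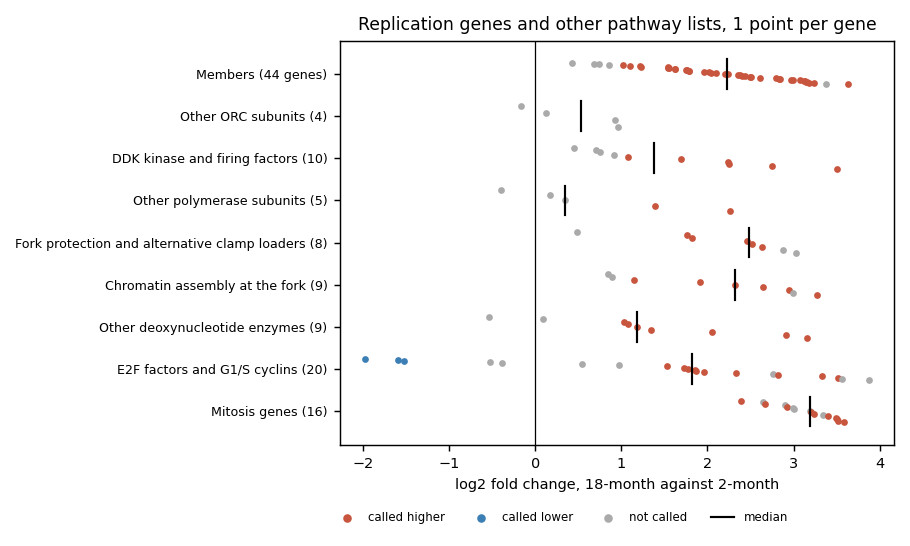
Log2 fold change, 18-month against 2-month, of the 44 replication genes (top row) and of the 8 lists of other pathway genes, with 1 point per gene coloured by its call and a black bar at the median of each row. The medians run from 0.34 for the row labelled other polymerase subunits, which includes the separate polymerases Polq and Polh, to 3.19 for the mitosis genes. The 3 genes called lower all belong to the E2F and cyclin list.

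Mitosis genes were called higher in 10 of 16, with the highest median of the lists, 3.19. Birc5, which encodes survivin, led at 3.58 (adjusted p = 0.032, edgeR) and lost its call without 2-month replicate 3 and without each 18-month replicate (adjusted p up to 0.088, edgeR). Without 2-month replicate 2 Birc5 was at 5.48. Mki67, the gene of the proliferation antigen Ki-67, was not called. Its FPKM was 0.595, 30.0 and 1.79 at 2 months and 97.3, 82.2 and 80.3 at 18 months. The young libraries spanned a wider range than those of any replication gene, and no 18-month library overlapped them. On the log2 scale Mki67 differed between the ages by 3.01 ± 1.40 (SE, adjusted p = 0.12, edgeR), and it was called at 6.07 without 2-month replicate 2 (adjusted p = 0.00055, edgeR).

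E2F factors and the cyclins of G1 and S phase were the list with changes in both directions, with 10 of 20 called higher and 3 lower. The FPKM of E2f1, an activator of replication genes, was 0.398, 3.29 and 0.756 at 2 months and 8.78, 11.5 and 11.7 at 18 months. E2f1 was called at 2.82 (adjusted p = 0.027, edgeR), a call lost without 2-month replicate 3 and without each 18-month replicate (adjusted p up to 0.084, edgeR). It was at 4.09 without 2-month replicate 2. Ccne1, which encodes cyclin E1, had the largest called rise, at 3.51 (adjusted p = 0.024, edgeR), and lost its call without the same 4 libraries in turn (adjusted p up to 0.063, edgeR). Ccne1 was at 5.26 without 2-month replicate 2.

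Ccnd2, which encodes cyclin D2, had the largest fall. Its FPKM was 28.3, 18.7 and 24.8 at 2 months and 7.69, 5.97 and 5.83 at 18 months, a change of −1.97 ± 0.23 (SE, adjusted p = 0.0020, edgeR). The D cyclins did not move together, and the genes that follow were chosen after their values were seen. Ccnd1 was called lower at −1.52 and Ccnd3 called higher at 1.73 (adjusted p = 0.00075 for both, edgeR). In FPKM, Ccnd3 was 1.01, 1.08 and 0.940 times Ccnd1 in the 2-month replicates and 9.27, 9.49 and 10.01 times in the 18-month replicates. In this ratio 2-month replicate 2 lay with the other young libraries. E2f5, a repressor of the family, was called lower at −1.59, and E2f4, another repressor, was called higher at 1.86. E2f2 was at 3.56 with an adjusted p-value of 0.11 in edgeR, which is not past the threshold. Its FPKM was 0.244, 14.8 and 0.366 at 2 months and 49.4, 64.0 and 66.5 at 18 months, with no overlap.

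**Figure D4:**
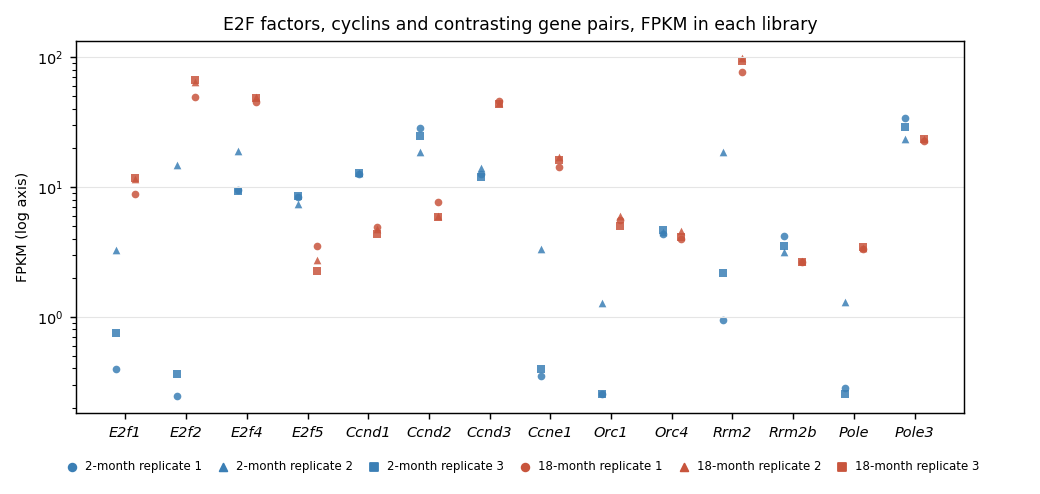
FPKM on a log axis of E2F genes, cyclin genes and 3 pairs that contrast a replication gene with a counterpart (Orc1 with Orc4, Rrm2 with Rrm2b, Pole with Pole3), with 1 symbol per library, 2-month in blue and 18-month in red. E2f5, Ccnd1 and Ccnd2 lie lower in every 18-month library, Ccnd3 lies higher, and in Orc1, Rrm2 and Pole the triangle of 2-month replicate 2 lies between the other young libraries and the older ones.

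Markers of blood-forming cells moved with the replication genes, and their part in the result was not tested. A list of 10 neutrophil and precursor genes took 0.000598%, 0.335% and 0.00514% of the counts in 2-month replicates 1, 2 and 3 and 3.804% to 4.10% in the 18-month libraries, and 0 of 10 were called. Their log2 fold changes were nonetheless 4.65 (Ltf) to 5.40 (Camp), with adjusted p-values of 0.080 to 0.15 in edgeR. In all 10 the FPKM of every 18-month library lay above that of every 2-month library, as in 35.6% of all tested genes. A list of 10 erythroid genes took 0.0332%, 0.691% and 0.0813% at 2 months and 2.74% to 3.62% at 18 months, and 4 of 10 were called higher. For both lists replicate 2 was the highest young library, as it was for 41 of the 44 replication genes. Megakaryocyte genes took 0.000710% to 0.00661% at 2 months and 0.128% to 0.193% at 18 months, with 4 of 5 called higher. Monocyte and macrophage genes took 0.00122% to 0.0483% and 0.162% to 0.169%, with 2 of 8 called higher.

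B cell genes did not follow the same order. The whole B cell list took 0.00105%, 0.0324% and 0.00151% of the counts in the 2-month replicates and 0.0214% to 0.0259% in the 18-month libraries, so that 2-month replicate 2 was the highest of all 6, and 0 of 10 were called. Osteoclast genes also peaked in 2-month replicate 2, with 0.00693%, 0.580% and 0.0978% at 2 months and 0.238% to 0.269% at 18 months, and 0 of 5 were called. Osteoblast and osteocyte genes took 0.373% to 0.549% at 2 months and 0.112% to 0.120% at 18 months, with 2 of 6 called lower. Most of the 2-month share was Ibsp, with 154547 to 196182 counts at 2 months and 25258 to 25374 at 18 months. Bglap, Bglap2, Dmp1 and Sost were not called, and their ages overlapped in FPKM. Muscle genes took at most 0.00508% in any library, 3 of the 4 tested were called lower, and Myh4 was at 0 in the 18-month libraries. No other marker was at 0 in all libraries of an age.

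**Figure D5:**
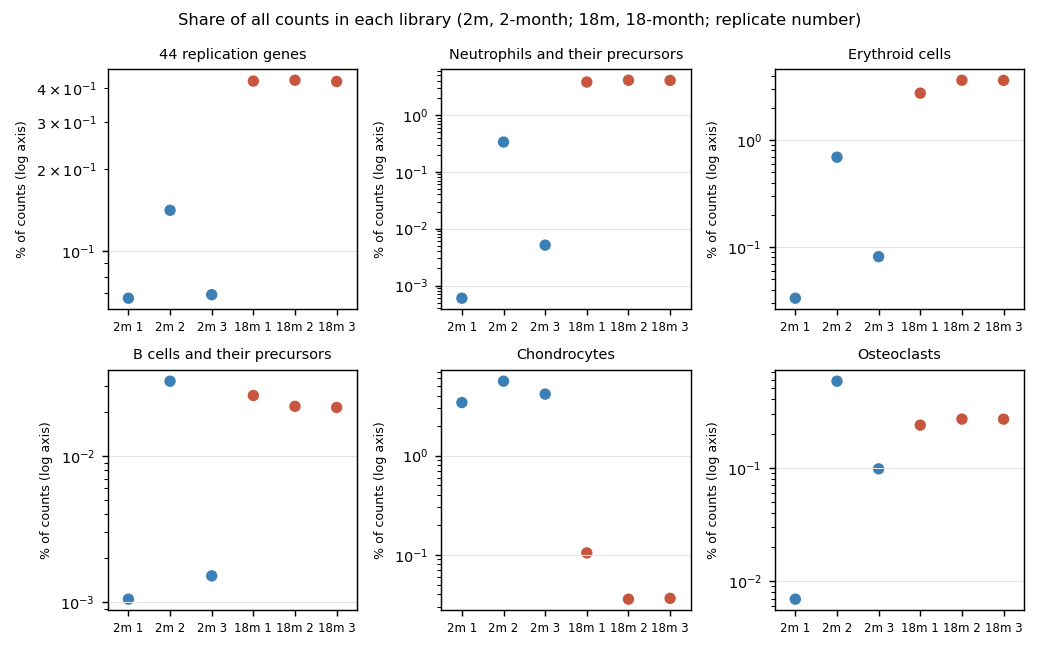
Share of all counts, on log axes, taken in each library by the 44 replication genes and by lists of marker genes for neutrophils, erythroid cells, B cells, chondrocytes and osteoclasts (2-month libraries in blue, 18-month in red). The replication genes, the neutrophil list and the erythroid list have the same pattern, with the 18-month libraries highest and 2-month replicate 2 next, whereas the B cell and osteoclast lists are highest in 2-month replicate 2 and the chondrocyte list is lowest at 18 months.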

How the data were processed

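The data are 6 RNA sequencing libraries of mouse articular cartilage, 3 per age, from poly(A)-selected RNA with strand-marking and unique molecular identifiers. For each gene the authors deposited raw whole-number counts, and FPKM values scaled by transcript length and library size. The submitters' processing notes name cutadapt 1.9, HISAT2 2.0.4, UMI-tools, StringTie 1.3.4d, DESeq2 and edgeR. Their roles, the genome build and the strand setting of the counting are not given in the sources used here. Of 33971 genes, 33865 were found in GENCODE M21, as were all 44 members, 36 of them with identical coordinates, so positions are on GRCm38. Promoters came from RefSeq (GRCm38.p6), 1 window per gene symbol. All libraries were used, and 0 columns of values were left out.

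The tests ran on counts in edgeR 4.0.16 under R 4.3.3 (TMM scaling, filterByExpr, quasi-likelihood test, two-sided), with age as the single term, and Benjamini-Hochberg adjustment covered 20397 genes. Calls needed an adjusted p below 0.05 and a log2 fold change above 1 or below −1. Standard errors were computed from the fold change and its F statistic. Alternatives used DESeq2 1.42.0, limma 3.58.1 on log2(FPKM + 0.1), other scalings and filters, a replicate block, glmTreat and leaving out each library. The script was tested on simulated data. Figures were drawn with matplotlib 3.10.9.

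The members and lists were chosen with earlier results of these data known. Values in every library are given for the member with the largest and smallest fold change of each group and for each member not called. From the other lists, the largest called rise and fall are named, with counterparts of members (Orc2, Orc3, Orc4, Orc5, Pold4, Pole3, Pole4, Rrm2b, Cdc7, Dbf4, Mki67, E2f1). Rnaseh2c, Ccnd1, Ccnd3, E2f2, E2f4 and E2f5 were chosen after their values were seen. Polh, Mtbp, Mcmbp, Mcm8 and Mcm9 are named only to describe the calls of their lists.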

Additional observations from a re-analysis of the deposited data

How the results depend on the processing

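In every one of 17 alternatives, leaving out each library included, 0 of the 44 replication genes were called lower and all 44 had a log2 fold change above 0. Between 29 and 40 were called higher, the 29 in a test against a fold change of 2. Of 748 values of single replication genes, 702 kept their direction and side of the threshold, 39 lost the call and 7 gained it. For the other named genes the counts were 300, 25 and 12 of 340, and 3 changed sign, all with TPM in limma, namely Orc3 (−0.23), Pold4 (−0.18) and Pole4 (−0.012). TPM divides FPKM by its sum in the library, and that sum was larger in every 18-month library, so 18-month values were scaled down more. From log2(FPKM + 0.1) to TPM, the median of all genes moved from 0.07 to −0.33. That of the 44 genes moved from 2.37 to 1.96. The test against a fold change of 2 called 4033 of all genes (1366 higher, 2667 lower) and 18 genes of the other lists (15 higher). Limma on log2(FPKM + 1) called 2217 genes lower. The share of called genes that were higher was 41.2% in edgeR, 57.8% with log2(FPKM + 1), 50.6% with log2(FPKM + 0.1) and 34.8% with TPM. With single libraries left out, 34 to 40 replication genes, 5640 to 9583 of all genes (2095 to 5007 higher, 3499 to 4576 lower) and 27 to 63 genes of the other lists (24 to 60 higher) were called. The cause of the other shifts was not tested.

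With the replicate number as a block, 40 replication genes, 6032 of all genes and 55 genes of the other lists were called. Libraries with the same number did not deviate together (r = 0.034, 0.044 and −0.024 for replicates 1, 2 and 3 across genes), and not every library correlated best with its own number. These values gave no sign of pairing by number, but deviations from the mean of 3 libraries cannot exclude it. The median chi-square per gene between libraries of one age was 6.25 to 51.7 times the counting noise, so none was taken as a repeat of another. All 44 genes had counts in every library and passed the filter on low counts, which the 3 libraries of 1 age can satisfy alone. The lowest, such as Orc1 with 49 and 51 counts in 2-month replicates 1 and 3, carry more counting error.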
